A study of Mus musculus with 48 samples.

Results

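Cdkn1a and 8 further genes of growth arrest and stress signalling were followed across 48 mouse livers in an experiment on alcohol feeding. The members were the rows of the deposited expression table whose symbol was Cdkn1a, Mdm2, Ccng1, Btg2, Gadd45a, Gadd45b, Gadd45g, Bbc3 or Ddit4, and all 9 were found among its 15041 genes. These genes were named by symbol with earlier results on the same livers known. The measured values they were selected on are their levels in these livers by genotype label, treatment and time, with no threshold recorded, so the adjusted p-values below place each gene in a fit over all genes and are not independent evidence for the group.

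Liver RNA came from mice labelled as knockouts of SHP, the nuclear receptor encoded by Nr0b2, and from Wild-type C57BL/6 mice. Ethanol mice took a Lieber-DeCarli liquid diet with 5% ethanol for 10 days and a binge of 5 g/kg ethanol by gavage at 9am on day 11. Control mice took a maltose control diet and 9 g/kg maltose dextrin. Livers were collected at 6pm, midnight (12am in the labels), 6am and noon (12pm), with 3 mice in each of the 16 groups, so that each arm of 1 genotype label and 1 treatment held 12 livers. Every mouse had its gavage at 9am, so time of day and time since gavage cannot be told apart. The labels do not give the age or sex of the mice, the design of the SHP allele or the cells in which it acts.

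Depth, counted as whole reads recovered from the deposited values, was 9605636 to 19780144 reads per library. Hepatocyte markers (5 of 6 listed genes were in the table) summed to 41500 to 77500 FPKM over the libraries. Nr0b2 itself had 62 to 875 reads in every one of the 48 libraries, and its level did not separate the genotype labels (SHP knockout label minus wild type, log2 difference -0.18 with limma adjusted p = 0.626 among controls and 0.10 with adjusted p = 0.794 among ethanol mice). For this reason the mice are called by their SHP knockout label throughout. A set of 11 acute phase genes had its highest sums in 4 livers, taken by rank. In the knockout-labelled ethanol arm these were noon replicate 1 and 6pm replicate 1 (93700 and 75300 FPKM summed). In the wild-type control arm they were 6pm replicates 0 and 2 (56000 and 37100 FPKM). In the others the sum was 6040 to 36200 FPKM, so no gap separates the lowest of the 4 from the next liver. Results that change without these 4 livers are given with the value found without them. Fits without them keep 6pm replicate 1 as the 1 wild-type control at that time.

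The transcription factor p53 is held at a low level because its target Mdm2, a ubiquitin ligase, marks it for destruction. DNA damage and other stresses stabilise p53, which then raises Cdkn1a (the p21 inhibitor of cyclin-dependent kinases), Ccng1 (cyclin G1), Btg2 (an antiproliferative partner of the mRNA deadenylation machinery), Gadd45a and Bbc3 (PUMA, a BH3-only protein that promotes apoptosis). Several of these genes are also driven without p53: Gadd45b and Gadd45g, which encode small stress proteins that bind MAP kinase kinase kinases and cyclin-dependent kinase complexes, respond to cytokine and NF-kB signalling, and Ddit4 (REDD1), an inhibitor of the growth kinase mTORC1, responds to glucocorticoids, hypoxia and amino acid stress. Most hepatocytes of the adult liver do not divide, and Cdkn1a in liver is known to vary with time of day, fasting and injury.

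The sequences before the start sites are shown for 5 genes, the 4 members with a match to the p53 half-site searched below and Gadd45b. Bbc3, called lower with ethanol in wild type, is not among them, so the lines shown do not stand for all called members. Promoter windows (250 bases before and 50 after each start, from RefSeq on GRCm38.p6) were present for all 9 members, 12 windows in all, and Cdkn1a had a pair of starts 2790 bases apart. Each line gives the 250 bases before the start on the gene's own strand, 5′ to 3′, with motif matches in capitals.

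Cdkn1a (upstream start), chr17:29090729-29090978, plus strand: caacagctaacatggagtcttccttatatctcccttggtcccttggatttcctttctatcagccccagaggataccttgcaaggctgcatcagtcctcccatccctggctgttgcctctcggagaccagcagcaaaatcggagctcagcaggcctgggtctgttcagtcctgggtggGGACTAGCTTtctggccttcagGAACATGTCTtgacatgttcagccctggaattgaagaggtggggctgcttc
Mdm2, chr10:117710759-117711008, minus strand: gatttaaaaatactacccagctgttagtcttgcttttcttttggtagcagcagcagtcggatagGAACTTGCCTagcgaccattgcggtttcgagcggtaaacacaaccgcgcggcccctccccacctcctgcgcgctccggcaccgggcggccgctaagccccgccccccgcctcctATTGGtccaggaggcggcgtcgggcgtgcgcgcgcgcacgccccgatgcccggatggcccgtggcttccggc
Ccng1, chr11:40755287-40755536, minus strand: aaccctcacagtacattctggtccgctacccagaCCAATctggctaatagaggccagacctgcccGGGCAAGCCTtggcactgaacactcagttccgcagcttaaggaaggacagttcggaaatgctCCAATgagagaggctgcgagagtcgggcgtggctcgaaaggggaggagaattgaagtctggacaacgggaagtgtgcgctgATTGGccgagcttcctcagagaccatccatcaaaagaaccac
Gadd45a, chr6:67037408-67037657, minus strand: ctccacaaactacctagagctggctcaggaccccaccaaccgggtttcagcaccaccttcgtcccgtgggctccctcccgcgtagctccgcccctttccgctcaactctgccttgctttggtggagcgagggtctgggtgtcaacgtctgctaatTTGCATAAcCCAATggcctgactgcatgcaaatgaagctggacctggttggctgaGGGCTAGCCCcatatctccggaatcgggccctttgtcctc
Gadd45b, chr10:80929841-80930090, plus strand: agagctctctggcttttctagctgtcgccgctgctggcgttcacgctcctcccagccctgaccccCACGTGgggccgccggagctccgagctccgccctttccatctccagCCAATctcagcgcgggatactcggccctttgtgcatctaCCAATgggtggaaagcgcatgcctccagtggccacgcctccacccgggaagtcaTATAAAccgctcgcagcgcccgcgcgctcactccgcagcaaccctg

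In these windows the p53 half-site was searched as the standard 10-base consensus on both strands. It matched in 4 of the 12 windows, which belong to 4 of the 9 members. The matches lay in Cdkn1a at 73 and 51 bases before the upstream start, in Mdm2 at 186, in Ccng1 at 185 and in Gadd45a at 40. The same half-site was present in 8.36% of all 32817 windows. The other capitals mark an E-box (CACGTG; 185 bases before the Gadd45b start, and in 7.15% of all windows), a TATA box (TATAAA; Gadd45b at 46, and 13.6% of windows), a D-box (TTATGNAA; Gadd45a at 95, and 3.39% of windows) and CCAAT boxes (CCAAT; 8 of the 9 members, and 37.4% of windows), each searched on both strands. The CCAAT count is per member, and some members have several windows, so it is not on the same footing as the share of windows. No match overlapped another in these lines. A match describes letters in the window only, and binding was not measured.

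Levels are given as scaled FPKM, the deposited FPKM (fragments scaled by gene length and library size) divided by a scale factor per library that corrects for composition. Over the 48 livers the mean was highest for Gadd45g (19.1 scaled FPKM), Ddit4 (14 scaled FPKM) and Ccng1 (11.8 scaled FPKM), and lowest for Gadd45b (3.68 scaled FPKM) and Bbc3 (4.36 scaled FPKM). The 9 genes differed widely in how much livers of the same group varied. Within groups, the SD of the log2 level was 0.13 for Mdm2 and 0.15 for Ccng1, against a median of 0.21 over all tested genes. By contrast it was 0.94 for Cdkn1a, 0.94 for Gadd45g, 0.95 for Ddit4 and 0.83 for Gadd45a, and 98.6% or more of the tested genes varied less than each of these 4. With 3 mice per group, the SE of a log2 ethanol effect at 1 time was 0.73 for Cdkn1a and 0.48 for Gadd45b.

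Averaged over the 4 times, ethanol changed 3 of the 9 members in the knockout-labelled livers and 5 in the wild-type livers. In the knockout-labelled livers Gadd45b was higher, and Ccng1 and Mdm2 were lower. The fit called 31.6% of all 13765 tested genes there, 16.8% higher and 14.8% lower. In the wild-type livers Cdkn1a, Gadd45a, Gadd45b and Ccng1 were higher and Bbc3 was lower, and 30.3% of all genes were called, 16.6% higher and 13.7% lower. The median log2 change of the 9 members was -0.18 in the knockout-labelled livers and 0.15 in the wild-type livers, against medians over all genes tested of 0.0042 and 0.0054. The effect itself differed between the genotype labels for 3 members, Ccng1, Mdm2 and Gadd45b, each lower in the knockout label, where 8.01% of all genes differed, 3.7% higher and 4.32% lower. A gene was called when its p-value from limma, adjusted by Benjamini-Hochberg over all genes tested, was below 0.05. The samples are bulk liver, so fewer cells of a type and less RNA per cell cannot be told apart.

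Acute phase genes, which mark a state of hepatocytes, and markers of cell types moved in the same contrasts. Of the 11 acute phase genes, 8 were higher with ethanol in the knockout label (median log2 1.5) and 2 lower in wild type (median 0.06), and 6 differed between the labels in their ethanol effect, each higher in the knockout label. Of 8 Kupffer cell markers, 3 were called in the knockout label, 1 higher and 2 lower (median -0.43), and 6 in wild type, 1 higher and 5 lower (median -0.68). Of 3 neutrophil markers tested, 2 were higher in the knockout label, and limma called 0 in wild type (0 at an unadjusted p under 0.05). Stellate cell markers were called in 4 of 6 under each label, 1 higher and 3 lower in the knockout label and 2 of each in wild type. Hepatocyte markers were called in 2 of 5 in the knockout label, both higher. Their part in the member effects was not tested.

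**Figure D1:**
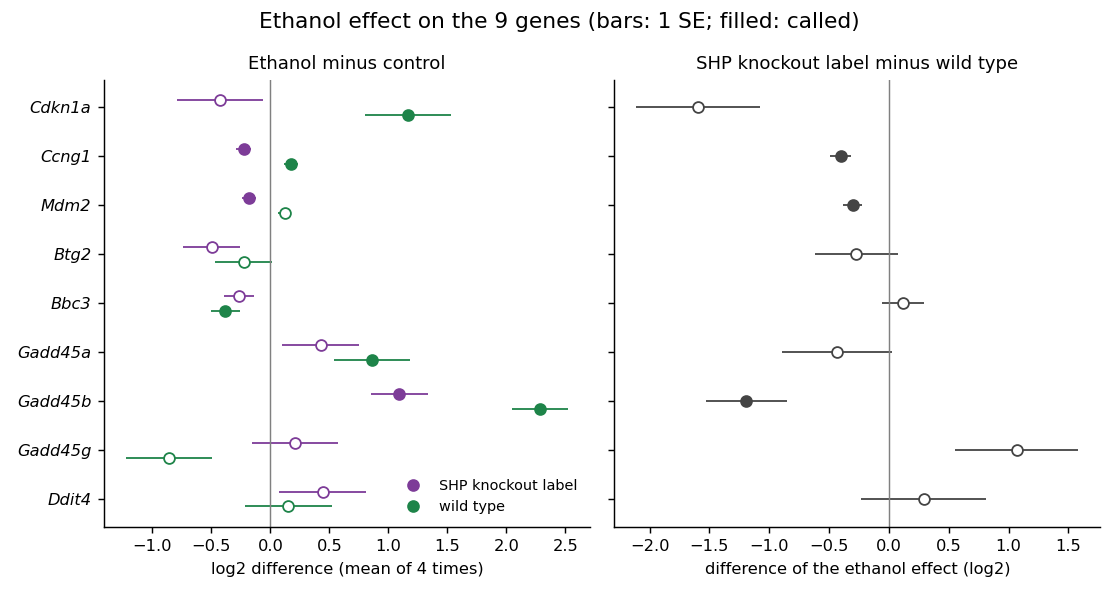
Ethanol minus control for each of the 9 genes as the log2 difference averaged over the 4 times, for the SHP knockout label and for wild type (left), and the difference between these effects (right). Bars are 1 SE and filled points are called. Gadd45b was higher with ethanol under both labels (1.09 and 2.28 on the log2 scale), while Ccng1 and Mdm2 lay on opposite sides of 0 under the 2 labels.

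Cdkn1a had a wider change of level over the times of collection in wild-type ethanol livers than any other member in any arm. In knockout-labelled livers at 6pm it stood at 2.55, 11.6 and 15.0 scaled FPKM with ethanol, against 15.2, 4.7 and 6.03 scaled FPKM in controls, and the groups overlapped. At midnight the knockout-labelled ethanol livers had 5.98, 8.29 and 19.5 scaled FPKM, against 6.73, 17.0 and 3.87 scaled FPKM in controls. At 6am the values were 11.0, 2.32 and 32.1 scaled FPKM with ethanol, against 9.25, 8.8 and 14.1 scaled FPKM in controls, so both of these times overlapped as well. Noon was the exception: 0.633, 1.17 and 3.09 scaled FPKM with ethanol lay below all of 6.55, 13 and 3.99 scaled FPKM in controls. There the log2 difference was -1.99 (SE 0.73; limma adjusted p = 0.0466), at a time when 22.4% of all genes were called in this label. This call was fragile: it was lost on leaving out control noon replicate 0 (adjusted p = 0.0732), control noon replicate 1 (adjusted p = 0.208), ethanol noon replicate 0 (adjusted p = 0.181) or ethanol noon replicate 1 (adjusted p = 0.132), and the log2 difference without the 4 livers of high acute phase level was -1.90 (adjusted p = 0.131). It was also lost with a pseudocount of 1 FPKM, with voom (limma's weighted fit) on the recovered reads, with a replicate block and with a fit on each genotype label alone (adjusted p 0.0526 to 0.11).

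In wild-type livers Cdkn1a differed most between treatments at 6pm. At 6pm the ethanol livers had 67.7, 54.3 and 25.3 scaled FPKM, against 1.42, 0.967 and 0.566 scaled FPKM in controls. Every ethanol liver lay far above every control liver, and the first and second of these values were the highest of the gene in all 48 livers. The log2 difference was 4.99 (SE 0.73; limma adjusted p = 1.09e-05), a 31.8-fold higher level in ethanol livers on the scale that includes the pseudocount, while 18.4% of all genes were called at this time. At midnight the ethanol livers were at 4.24, 11.6 and 3.7 scaled FPKM, against 8.24, 1.97 and 5.4 scaled FPKM in controls. By 6am they were at 3.22, 30.7 and 5.01 scaled FPKM, against 5.26, 5.0 and 11.0 scaled FPKM in controls. At noon the ethanol livers had 0.891, 0.904 and 0.338 scaled FPKM, below the 1.67, 1.5 and 2.02 scaled FPKM of controls without overlap. The log2 difference of -0.91 did not pass the test (limma adjusted p = 0.507). That test uses a spread shared by all 16 groups (SD 0.94 on the log2 scale). Within the noon groups the SD was 0.43 with ethanol and 0.17 in controls. Neither midnight (log2 difference 0.31, limma adjusted p = 0.857) nor 6am (0.27, limma adjusted p = 0.868) passed the test. The share of genes called was 9.65% at midnight, 12% at 6am and 7.45% at noon.

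The 6pm response of Cdkn1a differed between the labels. Its log2 ethanol effect was 0.04 (limma adjusted p = 0.982) in the knockout-labelled livers and 4.99 in wild type, a difference of -4.96 (SE 1.04; limma adjusted p = 0.00827), at a time when 2.99% of all genes differed. Cdkn1a was the 1 member of 9 called there, and no member was called for the difference at midnight, 6am or noon, where 0.247%, 0.0509% and 1.72% of all genes were called by limma (1370, 1588 and 2788 genes at an unadjusted p under 0.05). Leaving out any single library kept the wild-type 6pm effect between 4.70 and 5.41 and the difference between -5.40 and -4.23, with each call kept. The controls differed at 6pm as well, at 4.7 to 15.2 scaled FPKM in the knockout label and 0.566 to 1.42 scaled FPKM in wild type. At 6pm the summed acute phase level was 7400, 75300 and 8750 FPKM in knockout-labelled ethanol livers, against 17300, 6060 and 7320 FPKM in their controls, and 10100, 9370 and 10300 FPKM in wild-type ethanol livers, against 56000, 6480 and 37100 FPKM in their controls. Without the 4 livers of high level, which leaves 1 wild-type control at 6pm, the wild-type effect was 4.97 (limma adjusted p = 0.00409) and the difference -5.20 (adjusted p = 0.0644).

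**Figure D2:**
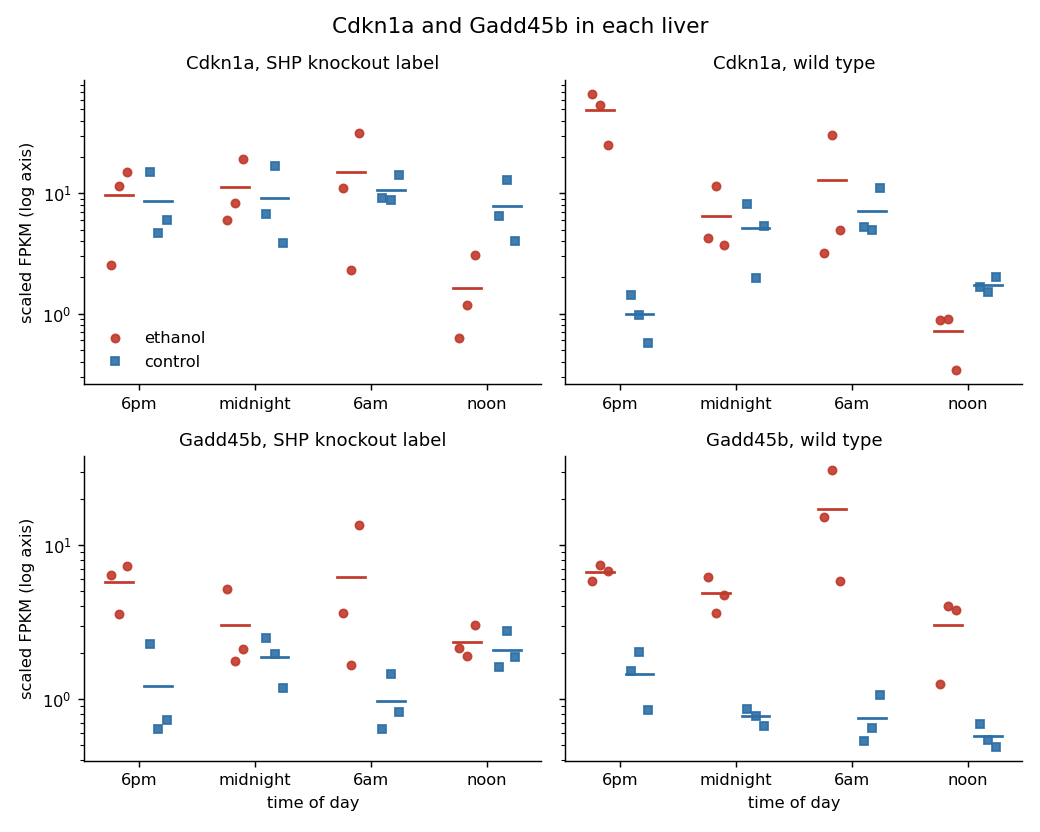
Level of Cdkn1a (top) and Gadd45b (bottom) in each liver, in scaled FPKM on a log axis, against time of day, with the SHP knockout label on the left and wild type on the right. Each point is 1 liver and short bars mark group means. In wild type at 6pm the 3 ethanol livers had 25.3 to 67.7 scaled FPKM of Cdkn1a and the 3 controls 0.566 to 1.42 scaled FPKM, while the knockout-labelled livers overlapped at that time.

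Averaged over the day, Cdkn1a was 9.44 ± 9.29 scaled FPKM in knockout-labelled ethanol livers and 9.1 ± 4.61 scaled FPKM in their controls (SD, n = 12 each). The log2 effect under this label was -0.43 (SE 0.37) and was not called (limma adjusted p = 0.394). In wild type the means were 17.3 ± 22.8 scaled FPKM with ethanol and 3.75 ± 3.27 scaled FPKM in controls (SD, n = 12 each), with a log2 effect of 1.16 (SE 0.37; limma adjusted p = 0.0149) whose call was lost under voom (1.23, adjusted p = 0.117). Of the 4 times in wild type, 6pm was the 1 that passed the test. The difference of the mean effects between labels was -1.59 (SE 0.52) and fell just outside the threshold (limma adjusted p = 0.0502). It was called with library totals alone (-1.80, adjusted p = 0.00972) and in 18 of the 48 fits that each leave out 1 library (adjusted p 0.0234 to 0.0828), 10 of which left out a knockout-labelled liver (ethanol midnight 2, 6am 0 and 2, noon 2, 6pm 1 and 2; control midnight 2, noon 2, 6pm 1 and 2) and 8 a wild-type liver (ethanol midnight 2, 6am 0 and 2, noon 2, 6pm 2; control midnight 0, 6am 2, 6pm 0). The gene spans chr17:29090976-29100727 on the plus strand of GRCm38, where the antisense gene AC167363.2 overlaps it, and a library that does not mark strand cannot separate their reads.

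Gadd45b was the member called higher with ethanol under both labels. In knockout-labelled livers at 6pm it stood at 6.43, 3.59 and 7.31 scaled FPKM with ethanol, above 2.27, 0.639 and 0.732 scaled FPKM in controls without overlap. At 6am the knockout-labelled ethanol livers had 3.61, 1.65 and 13.4 scaled FPKM, against 0.637, 1.46 and 0.817 scaled FPKM in controls, also without overlap, although 1 ethanol liver lay close to the highest control. At midnight (5.16, 1.76 and 2.12 scaled FPKM with ethanol, against 2.49, 1.96 and 1.18 scaled FPKM in controls) and noon (2.13, 1.9 and 3.02 scaled FPKM, against 1.62, 2.77 and 1.86 scaled FPKM) the groups overlapped. The log2 effect was 1.94 at 6pm (limma adjusted p = 0.011) and 1.80 at 6am (limma adjusted p = 0.0155), with 7.08% and 8.3% of all genes called. It was not called at midnight (0.48, adjusted p = 0.585) or noon (0.15, adjusted p = 0.863). No member was called at midnight under this label, where limma called 9.24% of all genes (3398 genes at an unadjusted p under 0.05). Both calls hung on single livers: the 6pm call was lost without control 6pm replicate 1 (adjusted p = 0.0794), and the 6am call without ethanol 6am replicate 2 (log2 1.05, adjusted p = 0.253), control 6am replicate 0 (adjusted p = 0.0635) or control 6am replicate 2 (adjusted p = 0.0562). Under voom neither was called (6pm adjusted p = 0.0746; 6am adjusted p = 0.11), and the fit on the knockout label alone lost the 6am call (adjusted p = 0.0584).

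In wild-type livers Gadd45b was higher with ethanol at each of the 4 times. The 6pm livers had 5.85, 7.42 and 6.76 scaled FPKM with ethanol, against 1.53, 2.01 and 0.851 scaled FPKM in controls. At midnight the values were 6.24, 3.62 and 4.75 scaled FPKM with ethanol, against 0.863, 0.779 and 0.67 scaled FPKM in controls. The 6am livers held the highest values of the series, 15.2, 30.6 and 5.88 scaled FPKM with ethanol, against 0.537, 0.647 and 1.06 scaled FPKM in controls. At noon the ethanol livers had 1.26, 4.02 and 3.8 scaled FPKM, against 0.683, 0.545 and 0.488 scaled FPKM in controls. Ethanol and control livers did not overlap at any of the 4 times. The log2 effect was 1.91 at 6pm (limma adjusted p = 0.00514), 2.05 at midnight (adjusted p = 0.0052), 3.57 at 6am (adjusted p = 7.8e-06) and 1.60 at noon (adjusted p = 0.035), which are 3.75-fold, 4.15-fold, 11.9-fold and 3.04-fold higher levels in ethanol livers. The noon call was kept only when ethanol noon replicate 0 was left out, and was lost with each of the other 5 left out in turn (adjusted p up to 0.14), with a pseudocount of 1 FPKM (adjusted p = 0.0609) and under voom (adjusted p = 0.183). The midnight call was lost under voom as well (adjusted p = 0.0611). The 6pm effect was 1.51 (adjusted p = 0.179) without the 4 livers of high acute phase level, with 1 control left at that time.

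Over the 4 times, Gadd45b was 4.34 ± 3.42 scaled FPKM in knockout-labelled ethanol livers and 1.54 ± 0.75 scaled FPKM in their controls (SD, n = 12 each), a log2 effect of 1.09 (SE 0.24; limma adjusted p = 0.000664). It was 7.95 ± 7.9 scaled FPKM in wild-type ethanol livers and 0.889 ± 0.454 scaled FPKM in their controls (SD, n = 12 each), a log2 effect of 2.28 (SE 0.24; limma adjusted p = 5.08e-09). The effect was smaller in the knockout label by 1.19 on the log2 scale (difference -1.19, SE 0.34; limma adjusted p = 0.0246), a call lost under voom (-1.51, adjusted p = 0.106) and without the 4 livers of high acute phase level (-0.99, adjusted p = 0.0913). Reads were few for this gene, 8 to 515 per library, and control livers lie near the pseudocount of 0.5 FPKM, so the folds above understate the ratio of levels. The gene lies at chr10:80930073-80932204 on the plus strand, with no antisense gene listed in the annotation used here.

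The other GADD45 genes did not share this pattern. Gadd45a had a lowest, median and highest level of 1.42, 5.56 and 21.5 scaled FPKM in knockout-labelled ethanol livers, against 2.97, 4.17 and 8.39 scaled FPKM in their controls. In wild type these were 1.79, 9.65 and 29.5 scaled FPKM with ethanol, against 1.96, 4.78 and 8.23 scaled FPKM in controls. Single ethanol livers under both labels stood high while others of the same group lay at control level: at 6am in wild type, for example, the ethanol livers had 25.5, 1.79 and 11.5 scaled FPKM, against 2.47, 4.18 and 1.96 scaled FPKM in controls. Ethanol minus control for Gadd45a was 0.43 on the log2 scale in the knockout label (SE 0.33; limma adjusted p = 0.333) and 0.86 in wild type (SE 0.33; limma adjusted p = 0.0417). That wild-type call was lost in 14 of the 24 fits without 1 library (ethanol midnight 1, 6am 0 and 2, noon 0 and 2, 6pm 0; control midnight 1 and 2, 6am 0 and 2, noon 0 and 1, 6pm 0 and 2), with adjusted p up to 0.106 without ethanol 6am replicate 0 (log2 0.67). A fit on wild type alone (adjusted p = 0.0521) and scaling by library totals (adjusted p = 0.0504) ended it too, as did a fit without the 4 livers of high acute phase level (0.81, adjusted p = 0.102). Gadd45a lies at chr6:67035096-67037457 on the minus strand and is overlapped by the antisense gene E230016M11Rik, whose reads cannot be told apart from its own in a library that does not mark strand.

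Gadd45g had the highest mean of the 9 genes. Its lowest, median and highest level was 4.95, 18.3 and 30.4 scaled FPKM in knockout-labelled ethanol livers, against 3.85, 10.5 and 75.7 scaled FPKM in their controls. In wild type these were 2.43, 9.56 and 31.6 scaled FPKM with ethanol, against 3.42, 17.2 and 98 scaled FPKM in controls. The highest values of all belonged to control livers, chiefly at 6pm, where knockout-labelled controls had 10.4, 52.4 and 75.7 scaled FPKM and wild-type controls 31.6, 98 and 11.6 scaled FPKM. The log2 effect of ethanol was 0.21 in the knockout label (limma adjusted p = 0.698) and -0.86 in wild type (limma adjusted p = 0.0729), and neither was called. Without the 4 livers of high acute phase level the wild-type effect was -1.24, with replicate 1 (98 scaled FPKM) the 1 wild-type control left at 6pm. The wild-type effect was called by limma without ethanol noon replicate 0 (-0.99, adjusted p = 0.0413). It was also called without control midnight replicate 0 (-0.97, adjusted p = 0.0478), noon replicate 0 (-1.10, adjusted p = 0.014) or 6pm replicate 2 (-1.04, adjusted p = 0.0285). The difference between labels of 1.07 (SE 0.52) was not called (limma adjusted p = 0.207).

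Mdm2 and Ccng1 moved by small amounts but with little scatter. Mdm2 had a lowest, median and highest level of 5.38, 6.4 and 8.26 scaled FPKM in knockout-labelled ethanol livers, against 6.07, 7.7 and 8.69 scaled FPKM in their controls. In wild type it had 6.06, 8.58 and 9.87 scaled FPKM with ethanol, against 6.6, 7.3 and 8.22 scaled FPKM in controls. The arms overlapped under both labels, with ethanol livers shifted down in the knockout label and up in wild type. The log2 effect was -0.18 in the knockout label (SE 0.06; limma adjusted p = 0.0138) and 0.12 in wild type (SE 0.06; limma adjusted p = 0.102), a wild-type value called without ethanol 6am replicate 2 (0.15, adjusted p = 0.0445). The difference of -0.30 (SE 0.08) was called (limma adjusted p = 0.0158) and kept its sign and call in every alternative fit. At 6pm in wild type Mdm2 stood at 8.47, 8.68 and 9.81 scaled FPKM with ethanol, above 6.75, 7.15 and 7.0 scaled FPKM in controls without overlap, a log2 effect of 0.34 (limma adjusted p = 0.0314) that was lost in 5 of the 6 fits without 1 of these livers (all but ethanol 6pm replicate 0; adjusted p up to 0.149) and without the 4 livers of high acute phase level (0.31, adjusted p = 0.258).

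Ccng1 also moved in opposite directions under the labels. Its lowest, median and highest level was 7.76, 10.8 and 12.8 scaled FPKM in knockout-labelled ethanol livers, against 10.2, 12.5 and 15.9 scaled FPKM in their controls. In wild type it was 10.7, 12.4 and 14.3 scaled FPKM with ethanol, against 9.51, 11.2 and 12.5 scaled FPKM in controls. These arms overlapped too. Ccng1 changed by -0.23 on the log2 scale in the knockout label (SE 0.06; limma adjusted p = 0.00548) and 0.17 in wild type (SE 0.06; limma adjusted p = 0.0317), a difference of -0.40 (SE 0.09; limma adjusted p = 0.0042). The wild-type call was lost in 9 of 24 fits without 1 library (ethanol midnight replicates 1 and 2, 6am 0, noon 1 and 6pm 0; control midnight 0, 6am 1, noon 0 and 6pm 1), with adjusted p up to 0.0722. At 6am the knockout-labelled livers had 10.3, 10.8 and 7.76 scaled FPKM with ethanol, below 12.3, 13.1 and 14.2 scaled FPKM in controls without overlap (log2 -0.45, limma adjusted p = 0.0204). Leaving out ethanol 6am replicate 2 (-0.31, adjusted p = 0.23), control 6am replicate 1 (adjusted p = 0.0682) or control 6am replicate 2 (adjusted p = 0.091) ended that call, as did a fit on the knockout label alone (adjusted p = 0.0645). Mdm2 lies at chr10:117688875-117710758 and Ccng1 at chr11:40748552-40755311, both on the minus strand.

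Scaling bears on effects of this size. With library totals alone the median log2 change of all genes was -0.20 for ethanol in the knockout label and -0.0056 in wild type, a shift of -0.20 in the difference between labels, 0.11 for the knockout label in control mice and -0.081 in ethanol mice. Mdm2 and Ccng1 kept their signs under that scaling, and the wild-type call of Ccng1 was lost (limma adjusted p = 0.141).

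Btg2 varied by single livers. It had a lowest, median and highest level of 2.89, 4.81 and 10.1 scaled FPKM in knockout-labelled ethanol livers, against 4.88, 6.97 and 13 scaled FPKM in their controls. In wild type it had 1.85, 5.26 and 18 scaled FPKM with ethanol, against 2.9, 5.65 and 33.1 scaled FPKM in controls. The highest value, in wild-type control 6pm replicate 1, came with the highest Gadd45g (98 scaled FPKM) and a Ddit4 of 27.7 scaled FPKM in the same liver. The log2 effect was -0.50 in the knockout label (limma adjusted p = 0.118) and -0.23 in wild type (limma adjusted p = 0.525). Without the 4 livers of high acute phase level the knockout-label effect was -0.60 and was called (limma adjusted p = 0.0139). In that fit the wild-type effect was -0.74, with replicate 1, the liver of highest Btg2, the 1 wild-type control left at 6pm. The knockout-label effect was called with library totals alone (-0.73, adjusted p = 0.0116) and with a fit on that label alone (adjusted p = 0.0105) too. Without wild-type control 6pm replicate 1 the wild-type effect was 0.03.

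Bbc3 was called lower with ethanol in wild type. Its lowest, median and highest level was 1.45, 4 and 7.94 scaled FPKM in knockout-labelled ethanol livers, against 2.35, 5.49 and 7.07 scaled FPKM in their controls. In wild type it was 1.92, 3.35 and 5.76 scaled FPKM with ethanol, against 1.88, 5.04 and 7.35 scaled FPKM in controls. In wild type the groups did not overlap at midnight (3.86, 3.21 and 3.33 scaled FPKM with ethanol, against 4.17, 5.61 and 4.86 scaled FPKM in controls) or 6am, when the ethanol livers had 3.17, 3.37 and 4.02 scaled FPKM and the controls 5.55, 7.35 and 5.23 scaled FPKM. Neither time was called (midnight log2 -0.43, limma adjusted p = 0.298, and 6am -0.69, limma adjusted p = 0.0658). Its log2 effect was -0.26 in the knockout label (SE 0.13; limma adjusted p = 0.108) and -0.38 in wild type (SE 0.13; limma adjusted p = 0.0204), and the difference between them, 0.12 (SE 0.18), was not called (limma adjusted p = 0.756). The knockout-label effect was called without the 4 livers of high acute phase level (-0.36, adjusted p = 0.0248), and without ethanol 6am replicate 1 (-0.35, adjusted p = 0.0242) or 6pm replicate 1 (-0.33, adjusted p = 0.0402), and with library totals alone (-0.49, adjusted p = 0.00103).

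Ddit4 was not called in any ethanol contrast. It had a lowest, median and highest level of 2.9, 16.1 and 77.4 scaled FPKM in knockout-labelled ethanol livers, against 5.18, 11.2 and 23.8 scaled FPKM in their controls. In wild type it had 2.82, 7.7 and 31.3 scaled FPKM with ethanol, against 2.1, 8.41 and 27.7 scaled FPKM in controls. The highest livers were knockout-labelled ethanol livers at midnight, at 12.8, 39.8 and 77.4 scaled FPKM, against 10.8, 8.35 and 20 scaled FPKM in controls. With an SD of 0.95 within groups on the log2 scale, the mean effects of 0.44 (SE 0.37; limma adjusted p = 0.385) in the knockout label and 0.15 (SE 0.37; limma adjusted p = 0.797) in wild type were not distinguishable from 0. The wild-type value turned to -0.33 without the 4 livers of high acute phase level, with replicate 1 (27.7 scaled FPKM) the 1 wild-type control left at 6pm. It turned to -0.04 without wild-type control 6pm replicate 2.

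**Figure D3:**
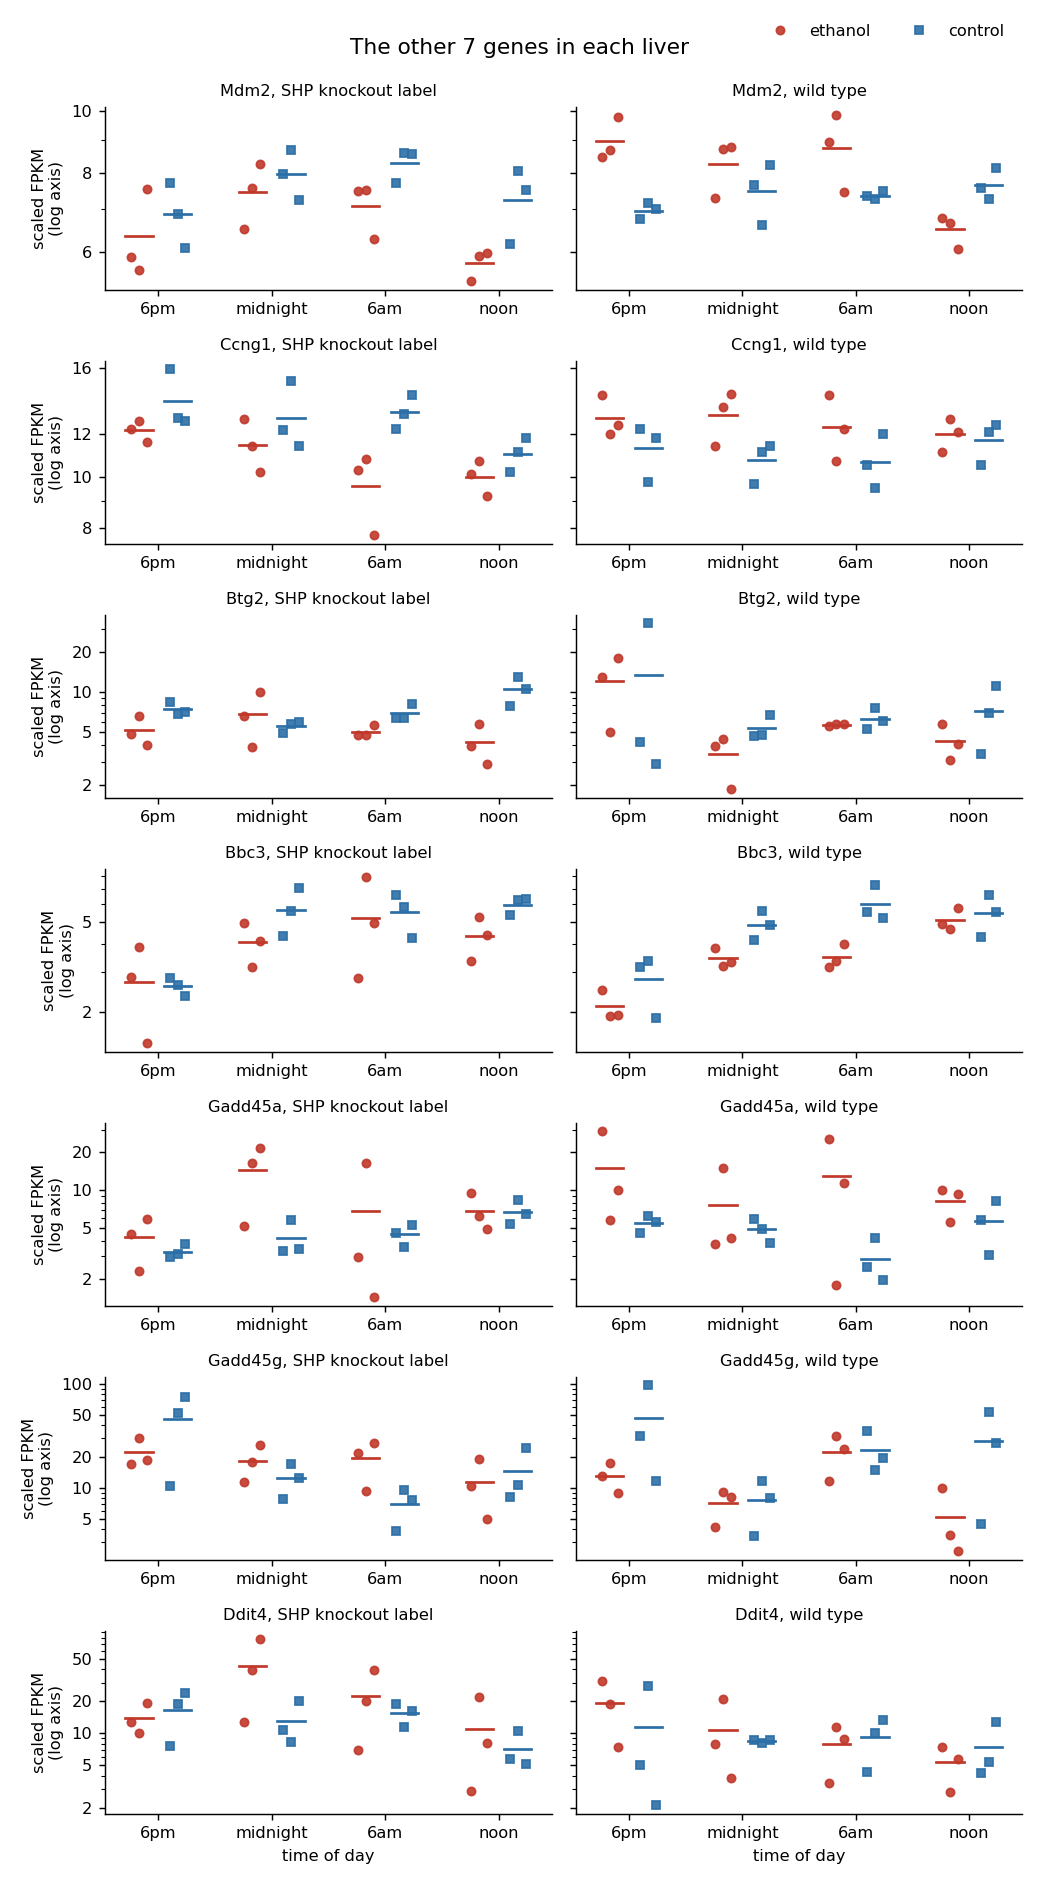
Level of Mdm2, Ccng1, Btg2, Gadd45a, Gadd45g, Bbc3 and Ddit4 in each liver, in scaled FPKM on a log axis, against time of day, with the SHP knockout label on the left and wild type on the right. Each point is 1 liver and short bars mark group means. The Mdm2 livers lay between 5.38 and 9.87 scaled FPKM, while Gadd45g ranged between 2.43 and 98 scaled FPKM.

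Comparing the genotype labels within control mice, Cdkn1a and Ccng1 were higher in the knockout label, 2 of 9 members, where 32.4% of all genes were called, 15.4% higher and 17% lower. Cdkn1a was 9.1 ± 4.61 scaled FPKM in knockout-labelled controls and 3.75 ± 3.27 scaled FPKM in wild-type controls (SD, n = 12 each). The gap was widest at 6pm (15.2, 4.7 and 6.03 scaled FPKM, against 1.42, 0.967 and 0.566 scaled FPKM in wild type) and noon (6.55, 13 and 3.99 scaled FPKM, against 1.67, 1.5 and 2.02 scaled FPKM in wild type), with no overlap at either time. The log2 difference over the 4 times was 1.40 (SE 0.37; limma adjusted p = 0.00373), a 2.63-fold higher level in the knockout label. Ccng1 was higher by 0.19 on the log2 scale (SE 0.06; limma adjusted p = 0.0208), a call lost without knockout-labelled control midnight replicate 1 (adjusted p = 0.0535) or 6pm replicate 0 (adjusted p = 0.0516). Mdm2 differed by 0.03 (limma adjusted p = 0.664). Gadd45b was called higher in the knockout label with library totals alone (0.63, adjusted p = 0.0401).

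Within ethanol mice, 3 of 9 members were lower in the knockout label, where 28.3% of all genes were called, 12.6% higher and 15.8% lower. Mdm2 was lower by a log2 difference of -0.27 (SE 0.06; limma adjusted p = 0.000656), Ccng1 by -0.21 (SE 0.06; limma adjusted p = 0.0101) and Gadd45b by -0.68 (SE 0.24; limma adjusted p = 0.0324). The Gadd45b call was lost in 10 of the 24 fits without 1 library (knockout-labelled midnight 1 and 2, 6am 0 and 1, noon 1, 6pm 1; wild-type midnight 0, 6am 1, noon 1 and 2; adjusted p up to 0.0788) and without the 4 livers of high acute phase level (-0.58, adjusted p = 0.0962). Cdkn1a was not called (log2 -0.20, limma adjusted p = 0.716), and Ddit4 was 0.90 higher without passing the test (limma adjusted p = 0.0661), but was called without wild-type midnight replicate 1, wild-type 6pm replicate 0, or replicate 0 of the knockout label at midnight, 6am or noon (1.01 to 1.07, adjusted p 0.029 to 0.0473). Kupffer cell markers (8 of 9 listed genes in the table) also separated the labels: 8 of 8 were higher in the knockout label among ethanol mice and 7 of 8 among controls. Acute phase genes were higher in the knockout label in 9 of 11 among ethanol mice, and 1 of 11 was called, lower, among controls. The Kupffer cell markers summed to 102 to 801 FPKM in knockout-labelled ethanol livers and 66.7 to 492 FPKM in wild-type ethanol livers. Among controls their sum was 313 to 1090 FPKM in the knockout label and 126 to 404 FPKM in wild type. The part of the Kupffer cell and acute phase genes in the member differences was not tested. Neutrophil markers were sparse, with a highest sum of 187 FPKM in knockout-labelled ethanol 6pm replicate 1 and Mpo above 0 in 9 of 48 libraries.

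Time of day was tested within each arm as 3 contrasts between the 4 times taken jointly. Time since gavage changed along with it in every arm and cannot be told apart from it. The member called for a change with time in every arm was Bbc3, the PUMA gene, though 3 of the 4 calls were lost in some alternative fits other than leaving out 1 library. Its group means spanned 0.81 on the log2 scale in knockout-labelled ethanol livers (limma adjusted p = 0.0453), 1.06 in knockout-labelled controls (adjusted p = 0.00819), 1.10 in wild-type ethanol livers (adjusted p = 0.0138) and 1.0 in wild-type controls (adjusted p = 0.0255). The lowest group mean came at 6pm in all 4 arms: 2.85, 3.87 and 1.45 scaled FPKM in knockout-labelled ethanol livers, 2.84, 2.64 and 2.35 scaled FPKM in their controls, 2.5, 1.92 and 1.94 scaled FPKM in wild-type ethanol livers and 3.18, 3.37 and 1.88 scaled FPKM in their controls. Single livers carried some of these calls: the wild-type control call was lost without 6am replicate 1, 6pm replicate 0 or 6pm replicate 2 (adjusted p up to 0.242), the knockout-labelled control call without 6pm replicate 2 (adjusted p = 0.0713), the wild-type ethanol call without noon replicate 2 or 6pm replicate 1 (adjusted p 0.052 to 0.0551), and the knockout-labelled ethanol call without midnight 2, 6am 1 or 2, noon 1 or 2, or 6pm 0 or 2 (adjusted p up to 0.403). The Bbc3 call in wild-type controls was lost without the 4 livers of high acute phase level (span 0.74, adjusted p = 0.524). Voom lost the call in knockout-labelled ethanol livers (adjusted p = 0.0734), and the fit on the knockout label alone lost it there (adjusted p = 0.157) and in knockout-labelled controls (adjusted p = 0.0843).

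Cdkn1a changed with time in both ethanol arms, with the knockout-label call lost in several alternative fits. It spanned 2.46 on the log2 scale in knockout-labelled ethanol livers (limma adjusted p = 0.0175; lost without noon replicate 0, adjusted p = 0.129, or noon replicate 1, adjusted p = 0.0705) and 5.28 in wild-type ethanol livers (adjusted p = 7.54e-05). The knockout-label call was also lost under voom (adjusted p = 0.0658), with a fit on that label alone (adjusted p = 0.0592), without its 2 livers of high acute phase level (adjusted p = 0.0866) and without all 4 (span 2.37, adjusted p = 0.0968). In controls the span was 0.54 (adjusted p = 0.935) in the knockout label and 2.31 (adjusted p = 0.0974) in wild type, and neither was called (a fit on wild type alone called the wild-type span, adjusted p = 0.0431). Wild-type ethanol livers also showed a change with time for Gadd45b (span 2.17, adjusted p = 0.00891; lost without 6am replicate 1, adjusted p = 0.0642) and Mdm2 (span 0.44, adjusted p = 0.0167; lost without noon replicate 2, adjusted p = 0.108, or with library totals alone, adjusted p = 0.0966). Without the 4 livers of high acute phase level the Btg2 span in wild-type controls was 2.53, with replicate 1 the 1 liver left at 6pm. Further members passed in that fit by limma: Btg2 in wild-type ethanol livers (span 1.58, adjusted p = 0.00552) and Ddit4 in knockout-labelled ethanol livers (2.68, adjusted p = 0.0362). In the last of these arms library totals alone called Mdm2 (adjusted p = 0.00341), Ccng1 (adjusted p = 0.0322) and Ddit4 (adjusted p = 0.0434), and Mdm2 also passed with the stricter filter on low values (adjusted p = 0.0468) and under voom (adjusted p = 0.0473). In all, 2 of 9 members were called in knockout-labelled ethanol livers, 1 in their controls, 4 in wild-type ethanol livers and 1 in their controls, where 38.1%, 12.7%, 20.3% and 8.34% of all genes were called in that order of arms. The ethanol effect itself depended on time for no member in the knockout label, where limma called 11% of all genes (3860 genes at an unadjusted p under 0.05), and for Cdkn1a in wild type, where 10.6% of all genes were called. The Cdkn1a effect spanned 2.34 on the log2 scale in the knockout label (limma adjusted p = 0.296) and 5.90, between 6pm and noon, in wild type (limma adjusted p = 0.00114). Leaving out 1 library made further members pass: Mdm2 (adjusted p = 0.0346) and Gadd45b (adjusted p = 0.0293) in wild type without ethanol 6am replicate 2, Btg2 (adjusted p = 0.0209) in wild type without control 6pm replicate 1, and Gadd45b (adjusted p = 0.0314) in the knockout label without ethanol 6am replicate 1. A fit on wild type alone also called Mdm2 there (adjusted p = 0.0344).

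**Figure D4:**
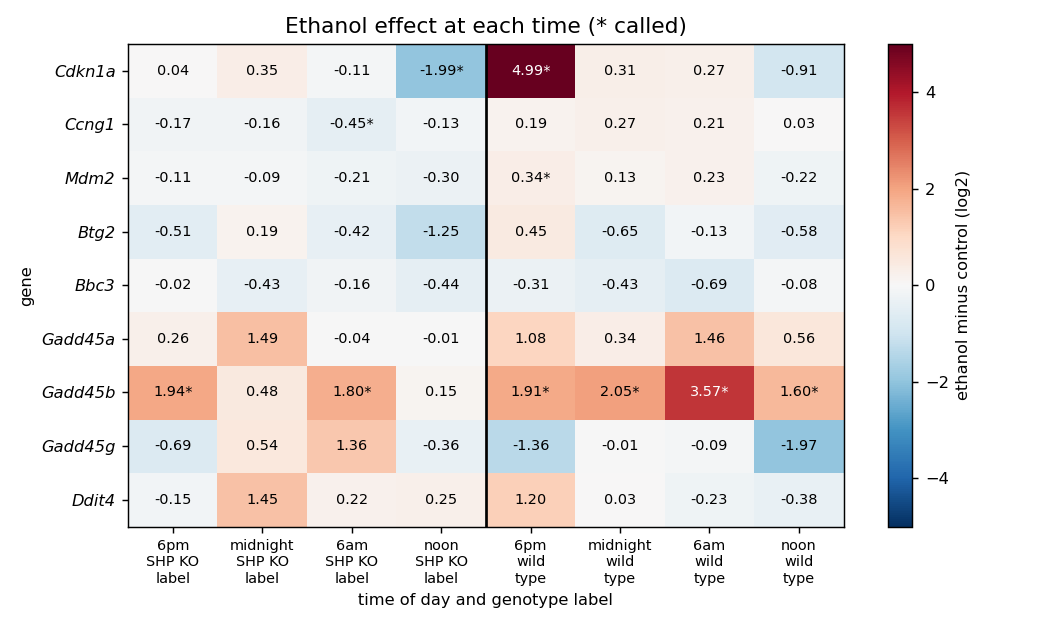
Ethanol minus control (log2) for each of the 9 genes at 6pm, midnight, 6am and noon, with the SHP knockout label in the left columns and wild type in the right columns. Asterisks mark called values. Cdkn1a in wild type at 6pm (4.99) was the largest value shown and Gadd45b in wild type was called at each of the 4 times, with calls at 6pm, midnight and noon lost in some alternative fits.

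The members were set beside related genes from lists chosen with earlier results of these livers known. Of 22 further p53 targets tested, ethanol changed 11 in the knockout label, 2 higher and 9 lower, and 5 in wild type, 1 higher and 4 lower. These are 50% and 22.7% of the list, where 31.6% and 30.3% of all genes were called, and the counts of the lists below are read against the same shares. The median log2 change of the list was -0.08 in the knockout label and 0.04 in wild type. In the knockout label Zmat3, an RNA-binding protein gene (log2 -0.43, limma adjusted p = 1.59e-05), Plk2, a polo-like kinase gene (-0.83, adjusted p = 4.03e-05), and Ppm1d, the phosphatase WIP1 that damps p53 (-0.27, adjusted p = 0.00167), were lower with ethanol. Plk2 was lower in wild type as well (-0.73, adjusted p = 0.000198), as were Xpc, a DNA repair gene (-0.23, adjusted p = 0.000629), and Sesn1 (-0.34, adjusted p = 0.00233). Cdkn1a, Gadd45a and Ccng1 were among the members higher with ethanol in wild type, where 17 of the 22 listed genes were not called. The share of the list called there was below that of all genes, and a common cause was not tested. Without the 4 livers of high acute phase level, 8 of 22 were called in the knockout label, 3 higher and 5 lower, and 6 in wild type, 2 higher and 4 lower. With library totals alone the higher level of Ddb2 in the knockout label turned to a lower one.

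At 6pm, when Cdkn1a was 31.8-fold higher in wild-type ethanol livers, limma called 0 of the 22 further p53 targets in the knockout label (3 at an unadjusted p under 0.05) and 5 in wild type. The 4 higher ones, chosen for naming after their values were seen, were Gdf15, a stress cytokine gene (log2 2.74, limma adjusted p = 0.0117), Trp53inp1 (1.60, adjusted p = 0.0392), Sesn2 (1.15, adjusted p = 0.0267) and Ddb2 (0.42, adjusted p = 0.0118), while Sesn1 was lower (-0.59, adjusted p = 0.0126). Of all genes 7.08% were called at 6pm in the knockout label and 18.4% in wild type. Of the 22, 2 were called in wild type without the 4 livers of high acute phase level, 1 in each direction. Trib3 and Ddit3, targets of the amino acid and endoplasmic reticulum stress factor ATF4, were higher in wild type at 6pm too (Trib3 4.41, limma adjusted p = 6.78e-06, and Ddit3 2.56, adjusted p = 0.00031). They were the only called genes of their list of 10 there, and Ddit4 was not called (1.20, limma adjusted p = 0.274). Btg1, a relative of Btg2, was also higher (0.76, limma adjusted p = 0.00919). At noon in the knockout label, where Cdkn1a was lower, 7 of the 22 p53 targets (31.8%) were called, all lower, where 22.4% of all genes were called.

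The p21 protein acts on complexes of cyclins and their kinases, and binds PCNA. Of 13 genes for cyclins, cyclin-dependent kinases and PCNA, 9 were lower with ethanol and 0 higher in the knockout label by limma (10 at an unadjusted p under 0.05, in either direction), among them Ccnb2 (log2 -1.78, limma adjusted p = 1.2e-06), Cdk1 (-1.64, adjusted p = 2.18e-06) and Ccna2 (-1.01, adjusted p = 4.81e-06). In wild type 2 were called, Cdk2 lower (-0.60, adjusted p = 9.78e-06) and Cdk6 higher (0.32, adjusted p = 0.0234). Among control mice 10 of the 13 were higher in the knockout label and the other 3 were not called. In that comparison 32.4% of all genes were called, 15.4% higher and 17% lower. Ccnb2 was at 1.66, Cdk1 at 1.5 and Ccna2 at 0.94 on the log2 scale, in the same livers in which Cdkn1a was 2.63-fold higher. Ccnb2 and Cdk1 ranged widely in knockout-labelled controls (0.32 to 13 and 0.389 to 8.15 FPKM). Their means in each other arm were below the pseudocount of 0.5 FPKM (Ccnb2 0.198 to 0.45, Cdk1 0.185 to 0.393 FPKM). The list median was -0.44 for ethanol in the knockout label and 0.62 for the knockout label in controls.

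Among the regulators of p53, 4 of 8 were called in the knockout label, all lower with ethanol: Chek2 (log2 -0.77, limma adjusted p = 2.55e-05), Chek1 (-0.64, adjusted p = 0.000348), Atr (-0.27, adjusted p = 0.00963) and Atm (-0.26, adjusted p = 0.0215). In wild type 1 was called, Chek2 (-0.49, adjusted p = 0.00395). Of 5 other inhibitors of cyclin-dependent kinases, Cdkn2c was lower (-0.72, adjusted p = 0.00428) and Cdkn1c higher (0.32, adjusted p = 0.0108) in the knockout label, and 0 were called in wild type by limma (0 at an unadjusted p under 0.05). Of 3 other BTG and TOB genes, Tob1 was lower in the knockout label (-0.36, adjusted p = 0.0298), and 0 were called in wild type by limma (0 at an unadjusted p under 0.05).

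Around Bbc3, 2 of 8 genes of the BCL2 family (25%) were called in the knockout label, Bad (log2 0.42, limma adjusted p = 0.000724) and Bik (0.42, adjusted p = 0.00852), both higher. In wild type 3 (37.5%) were called, both shares near those of all genes (31.6% and 30.3%): Bmf lower (-0.86, adjusted p = 1.95e-05), Bak1 higher (0.26, adjusted p = 0.017) and Bik higher (0.34, adjusted p = 0.0352). Of 6 genes in a list of GADD45 partners and MAP kinases, Map3k4 was lower in the knockout label (-0.22, limma adjusted p = 0.0182). In wild type 0 of them were called by limma (1 at an unadjusted p under 0.05), although Gadd45b was higher under both labels.

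Around Ddit4, 5 of 10 inhibitors of mTORC1 and ATF4 stress genes were called in the knockout label, 3 higher and 2 lower, and 3 in wild type, 2 higher and 1 lower, where the share of all genes was 31.6% and 30.3%. Trib3 was higher under both (log2 1.91, limma adjusted p = 1.78e-05 in the knockout label; 2.42, adjusted p = 3.3e-07 in wild type), Ddit4l, the close relative of Ddit4, was lower in the knockout label (-0.64, adjusted p = 0.000362) and Ddit3 was higher in wild type (1.12, adjusted p = 0.000461). Of 10 genes induced by glucocorticoids, 4 were called under each label. Fkbp5 was higher in both (1.07, adjusted p = 0.00039 in the knockout label; 0.72, adjusted p = 0.0148 in wild type), and Dusp1 was lower in both (-0.83, adjusted p = 0.00593; -1.93, adjusted p = 7.51e-08), while Ddit4 was called in neither.

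**Figure D5:**
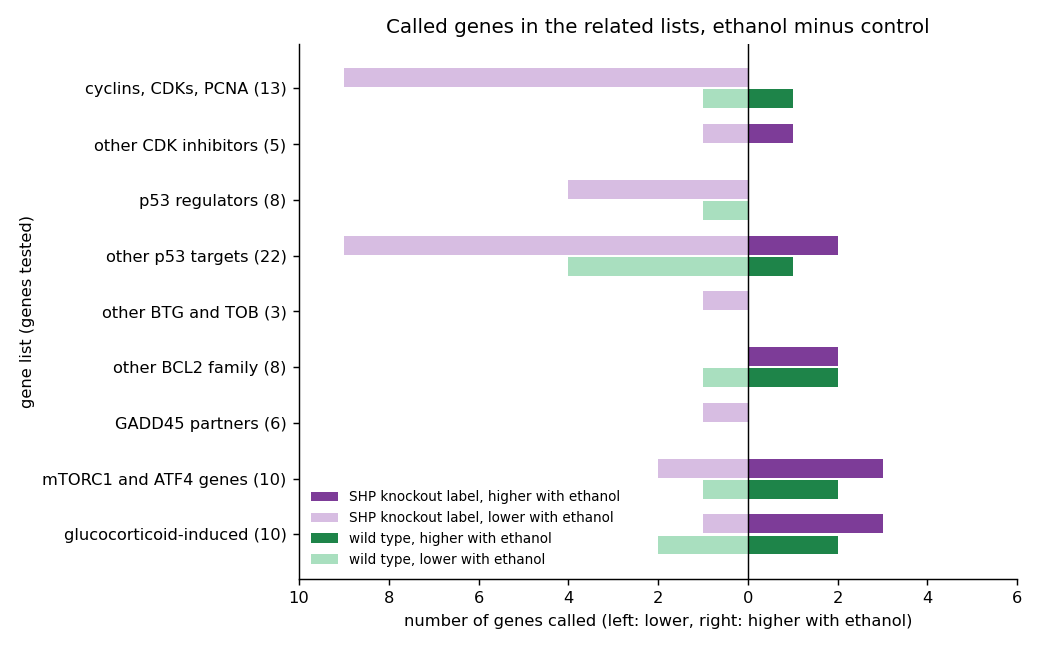
Number of genes called in each list related to the members, higher with ethanol to the right and lower to the left, for the SHP knockout label and wild type (mean of 4 times). Numbers in brackets are the genes tested in each list. The cyclin and kinase list had 9 of 13 genes lower in the knockout label, and 1 lower and 1 higher in wild type.

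The genes most like each member in their 16 group means were found by Pearson's r over 11229 genes with a mean of at least 1 FPKM. This is a description with no test, since each mean rests on 3 livers and all genes were measured in the same libraries. For Cdkn1a the most similar genes were Arsg (r = 0.866), Brd2 (0.865) and Lmo4 (0.856). For Gadd45b they were Qpct (0.927), Ccdc115 (0.916) and Htatip2 (0.899), followed by Ercc1, a DNA repair endonuclease gene (0.898). Mdm2 was most like Foxn2 (0.952) and Ube3a (0.909), Bbc3 most like Arhgef11 (0.914) and Ndst1 (0.913), and Ccng1 most like Tipin (0.855). The r values were lower for Btg2 (D1Ertd622e, 0.792; Nr4a1, an immediate early gene, 0.791) and Gadd45g (Klhdc3, 0.802), and for Ddit4 the nearest was Git2 (0.872). For Gadd45a the most similar was E230016M11Rik (0.849), the antisense gene that overlaps it.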

How the data were processed

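Poly(A) RNA of 48 mouse livers was sequenced as single reads of 50 cycles with a TruSeq kit that does not mark strand, per the labels' protocols. Per the submitters' processing notes, Novoalign and GRCm38 were used. Not given in the sources used here are the aligner's version, the annotation and how reads matching several genes were counted. The authors deposited FPKM values, named as such in the file header, for 15041 genes. The steps between low values gave whole reads for 15041 of 15041 genes (100% within a relative tolerance of 1e-10), and depth was 9605636 to 19780144 reads per library. At these depths a single read on 1000 bases of transcript equals 0.0506 to 0.104 FPKM. Chi-square per degree of freedom between livers of a group was 9.80 to 273, so no such pair agreed within sampling noise, and pairs across groups were not compared.

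The titles gave each sample's group and replicate number (0, 1 and 2), and the time tag its clock time. The separate treatment tag differed from the title in 24 libraries, and the titles, which match the series' design text, were used. No label names a batch, and whether ethanol and control livers were prepared apart cannot be told apart from treatment.

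FPKM values were divided by a factor per library (trimmed mean of M-values on the recovered reads, trimming 30% of folds and 5% of levels; 0.772 to 1.24), and log2(value + 0.5) was fitted with limma 3.58.1 in R 4.3.3, with a mean-variance trend and a mean for each of 16 groups (32 residual degrees of freedom). The spread is shared by all groups. A minimum of 0.5 FPKM in 3 or more libraries left 13765 genes and removed 1276, and all 9 members passed. Benjamini-Hochberg adjustment covered the genes tested in each contrast, with a threshold of 0.05. The pseudocount understates the change of low genes. Effects over several times are means of the 4 times, and tests of time are joint F tests, given with the range of the log2 values over the 4 times. The fit was tested on simulated data. Gene positions are those of GENCODE release M21 (GRCm38), and promoters from RefSeq on GRCm38.p6.

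The members and lists were chosen with earlier results of these data known. All 9 members were named in each contrast, and from each list up to 3 genes of smallest adjusted p in the ethanol contrast of each genotype label. Genes named outside that rule are marked. Likeness took the 5 tested genes of highest Pearson r over the 16 group means. Alternatives were other pseudocounts, filters and scalings, limma voom on the recovered reads, a replicate block, a fit per genotype label, each library left out in turn, and, chosen after seeing the data, fits without the 2 knockout-labelled ethanol livers or the 4 livers of highest acute phase level. The replicates are separate mice, per the series' design text.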

Additional observations from a re-analysis of the deposited data

Results flagged for a closer look

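A set of 5 results differed between genotype labels or times by a test of the difference itself in limma, with p-values adjusted over all 13765 genes tested. The ethanol effect averaged over the 4 times was lower in the knockout label than in wild type for Ccng1 (log2 difference -0.402, adjusted p = 0.0042), Mdm2 (-0.302, adjusted p = 0.0158) and Gadd45b (-1.19, adjusted p = 0.0246). The Ccng1 and Mdm2 effects had opposite signs under the labels, while Gadd45b was higher with ethanol under both. The Gadd45b call was lost under voom (-1.51, adjusted p = 0.106) and without the 4 livers of high acute phase level (-0.99, adjusted p = 0.0913).

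At 6pm the Cdkn1a effect differed by -4.96 (adjusted p = 0.00827), with 2.55, 11.6 and 15.0 scaled FPKM in knockout-labelled ethanol livers against 15.2, 4.7 and 6.03 scaled FPKM in their controls, and 67.7, 54.3 and 25.3 scaled FPKM in wild-type ethanol livers against 1.42, 0.967 and 0.566 scaled FPKM in their controls. Without the 4 livers this call was lost (-5.20, adjusted p = 0.0644). Within wild type, the Cdkn1a effect spanned 5.90 on the log2 scale over the 4 times (adjusted p = 0.00114). Groups of 3 and arms of 12 livers are outside the sizes for which single livers were screened as outliers.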

How the results depend on the processing

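Of 1182 values of the 110 member results under settings other than leaving out 1 library, 1121 kept their direction and side of the threshold, 34 lost a call, 20 gained one and 7 turned sign. With library totals alone ethanol changed 7301 genes in the knockout label (4347 as reported) and its effect differed between labels for 3828 genes (1103); members called were 5 of 9 in the knockout label (3) and 3 of 9 in wild type (5), 16 of 72 at single times (10) and 3 of 36 for the differences at single times (1). Limma voom gave 6 of 72 calls at single times; under it Cdkn1a in wild type over the 4 times had adjusted p = 0.117. Fits on each genotype alone gave 2 of 18 calls for time dependence (1). Without the 4 livers of high acute phase level members called were 5 of 9 for ethanol in the knockout label and 0 of 36 for the differences at single times. The cause was not tested.

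Signs turned for Gadd45g in the knockout label (-0.0336) and the Bbc3 difference (-0.0976) with library totals alone. Without the 4 livers they turned for Ddit4 in wild type (-0.33), the Btg2 difference (0.14) and, for the knockout label in controls, Btg2 (-0.32), Gadd45a (-0.0441) and Bbc3 (-0.0301); each was uncalled. Leaving out 1 library turned Btg2 in wild type (-0.383 to 0.0296), Ddit4 in wild type (-0.0361 to 0.394), Gadd45g in the knockout label (-0.00127 to 0.35), and, between labels, Gadd45a (-0.0835 to 0.0764) and Bbc3 (-0.0207 to 0.0761) in controls, and Cdkn1a (-0.407 to 0.035) and Btg2 (-0.206 to 0.0132) in ethanol mice.

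With 1 library left out, genes called ranged 3804 to 4719 (ethanol, knockout label), 3713 to 4400 (ethanol, wild type), 858 to 1303 (difference), 3824 to 4601 (labels, controls) and 3378 to 4384 (labels, ethanol). Members called ranged 3 to 4, 3 to 5, 3 to 4, 1 to 2 and 2 to 4, in the same order, and 8 to 11 at single times, 1 to 2 for differences at single times, 6 to 10 for time of day and 1 to 3 for time dependence.

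The replicate numbers did not pair the livers (24 pairs, correlation of deviations -0.567 to 0.447, 4 over 0.1). With the replicate block, genes called were 4319 (ethanol, knockout label), 4139 (ethanol, wild type), 1051, 4430 and 3880, and 109 of 110 member values kept their call; Cdkn1a at noon in the knockout label did not (adjusted p = 0.0526). The deposited values are FPKM, and edgeR and DESeq2 were not run. Limma voom was the fit made on the recovered reads. The fewest reads of a member in any library were 8 for Gadd45b and 10 for Cdkn1a.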
